A study of Capra hircus with 40 samples.

Results

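The uterus was compared with the ovary of Jining gray goats at month 6 after birth, the oldest age of the study, in 10 of its 40 small RNA libraries. The 5 uterus libraries of that age were set against the 5 ovary libraries, and all 427 miRNA rows of the count table were used. Of these rows, 350 had enough counts to be tested, and the other 77 lay at no more than 10 CPM (counts per 1000000 counts of the library) in each month 6 library, 12 of them at 0 in all 10. The study followed both organs of this breed from day 1 through months 2, 4 and 6, with 5 individuals per tissue and age. The labels name no treatment, and total RNA was taken from the tissue. The labels number the individuals of each group from 1 to 5 and do not tie an ovary to a uterus of the same goat. The stage of the oestrous cycle is not given in the sources used here.

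A miRNA is a short RNA that guides a silencing complex to messenger RNAs with a matching site and lowers their output. Each hairpin precursor can give a mature miRNA from its 5p and its 3p arm. The ovary holds follicles with oocytes and granulosa cells in a stroma, and the uterus holds a glandular and luminal epithelium, a stroma and thick layers of smooth muscle. Several miRNAs are known to be largely restricted to one of these cell types, so bulk levels also move with the makeup of the tissue. In such samples fewer cells of a type and less RNA per cell cannot be told apart.

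The libraries held from 6316644 to 8017302 counts and 344 to 373 detected miRNAs. Of the month 6 libraries, 4 stood apart from the rest: ovary 2, ovary 4, uterus 4 and uterus 5, together with 1 uterus library of month 4. In these 5, let-7b-3p ran from 1198 to 2489 CPM, while no other library of the series exceeded 419 CPM. At month 6, let-7a-5p lay at 15864 to 23140.3 CPM in the 4 and at 92586 to 122493 CPM in the other 6. As the 4 were spread evenly over both tissues, each call was also fitted without all 5 such libraries, a setting chosen after the data were seen. Ovary 1 resembled the uterus as much as its own group: its mean Spearman correlation across miRNAs was 0.912 with the other ovary libraries and 0.920 with the uterus libraries. Both means include libraries that stand apart. For ovary 4 the same means were close as well, at 0.923 and 0.919. The 5p arm of miR-202, a miRNA known to be enriched in gonads, lay at 28.3 CPM or more in each ovary library, with ovary 1 the lowest. In each uterus library it lay at 0.268 CPM or less. Whether ovary 1 also held tissue of another kind was not tested.

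At an adjusted p under 0.05 in edgeR's quasi-likelihood test, with Benjamini-Hochberg adjustment over the 350 miRNAs, 31 differed between the tissues (8.86% of those tested). Of these, 24 were higher in uterus (6.86%) and 7 were lower in uterus (2.00%). The largest calls with at least 10 CPM on average were miR-206, miR-9-5p, miR-490, miR-183, miR-1 and miR-133a-3p on the uterine side and both arms of miR-202, miR-383 and miR-148a-5p on the ovarian side. An unadjusted p under 0.05 was found for 77 miRNAs. The 2 groups of 5 libraries did not overlap in CPM for 26 of the 350 miRNAs (7.43%), 23 with the uterus above and 3 with it below, and 16 of these were among the calls. The split of calls moved with the scaling: 77.4% were higher in uterus with TMM scaling (trimmed mean of M values), 61.9% with DESeq2 size factors (13 higher, 8 lower) and 90.0% with library totals (27 higher, 3 lower). The median log2 change of all tested miRNAs was -0.07, -0.16 and 0.10 under these scalings. The spread was estimated from all 40 libraries of the series, and a fit of the month 6 libraries alone called 14 of 298 tested miRNAs. Below, a log2 change is that of uterus minus ovary, given ± its standard error (SE), and levels are mean ± SD with n = 5.

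**Figure D1:**
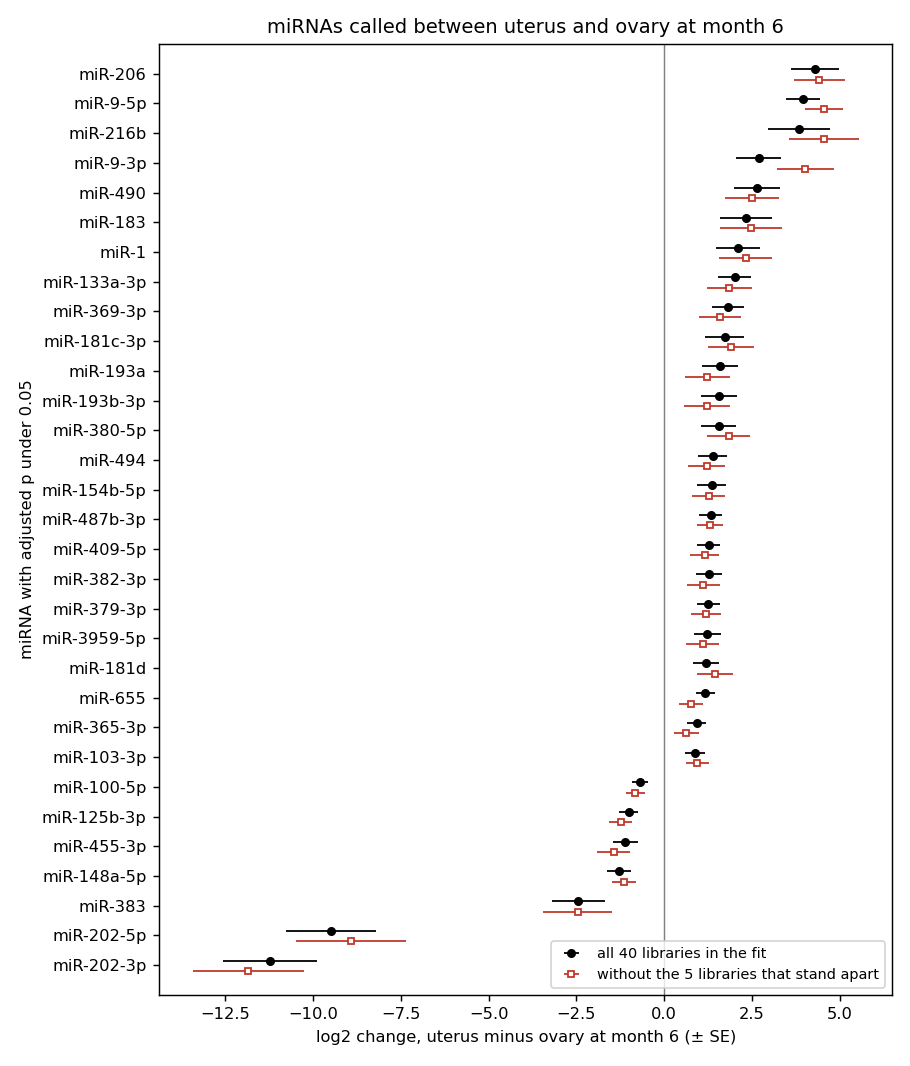
Log2 change, uterus minus ovary, of the 31 called miRNAs (x axis; bars are ± SE), from the fit of all 40 libraries (black circles) and without the 5 libraries that stand apart (open red squares). All 31 lie on the same side of 0 in both fits, and 7 of them passed the threshold in the second.

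Many of the calls did not pass with 1 library fewer. When each month 6 library was left out in turn, 12 to 35 miRNAs were called, the fewest without ovary 2 and the most without ovary 1. Of the 31 calls, 9 passed in all 10 of these fits: miR-9-5p, miR-9-3p, miR-206, miR-216b, miR-133a-3p, miR-490 and miR-369-3p on the uterine side and the 2 arms of miR-202 on the ovarian side. The other 22 lost their call in at least 1 of the fits, 128 times in all, and each time the log2 change stayed within 1.5 times the reported one (0.714 to 1.145 of it). Without the 5 libraries that stand apart, 352 miRNAs were tested and 7 were called (1.99%). These were miR-9-5p, miR-9-3p, miR-206, miR-216b, both arms of miR-202 and miR-125b-3p, all among the 31. The remaining 24 calls did not pass without these libraries, and all 31 kept their direction in each of these fits.

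On the ovarian side the widest gap was that of miR-202, known from granulosa cells of the ovary and from Sertoli cells of the testis. Its 5p arm lay at 28.3, 40.6, 102, 131 and 68.3 CPM in ovary libraries 1 to 5. In uterus libraries 1 to 5 it lay at 0.128, 0.268, 0, 0 and 0.137 CPM, which is 4 counts in all against 2756 counts in ovary. The pooled level was 710 times higher in ovary, with an exact 95% counting interval of 277 to 2609, and the fitted log2 change was -9.50 ± 1.28 (adjusted p = 1.38e-06). Its 3p arm lay at 46.5, 3.96, 62.6, 10.5 and 77.1 CPM in ovary libraries 1 to 5 and had no count in any uterus library. With 1400 ovary counts and a limit of 3 counts over the uterus group, it was at least 481-fold lower in uterus (adjusted p = 1.38e-06). No ovary library overlapped a uterus library for either arm, and the lowest 3p levels were those of ovary 2 and ovary 4. Both calls also held without the libraries that stand apart.

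miR-383, another miRNA known from granulosa cells, lay at 61.7, 29.6, 107, 12.6 and 37.4 CPM in ovary and at 5.10, 31.7, 0.853, 4.98 and 5.50 CPM in uterus. Uterus 2 was above ovary 2 and ovary 4, so the groups overlapped. The log2 change was -2.44 ± 0.75 (adjusted p = 0.0437), -3.85 without uterus 2, and -2.46 without a call when the libraries standing apart were left out. The call was lost in 6 of the 10 fits that left out a library, those without ovary 2, ovary 3 and each uterus library but uterus 2, with log2 changes of -2.53, -1.89, -2.40, -2.23, -2.30 and -2.34. Of the 6 tested members of a list of gonad and granulosa cell miRNAs, 3 were lower in uterus and passed, beside 2.00% of all tested miRNAs, and 2 of these 3 are the arms of miR-202. None was higher, and the median was -1.59 (the same with miR-202-3p at its bound) beside -0.07 over all tested miRNAs. The remaining members had log2 changes of -0.73 ± 0.31 for miR-224-5p, -0.22 ± 0.61 for miR-21-5p and -0.18 ± 0.36 for miR-320-3p. The sum of the list, of which miR-21-5p was the largest part, ran from 10801 to 20264 CPM over the ovary libraries and from 10425 to 15829 CPM over the uterus libraries.

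The other 4 calls on the ovarian side had smaller changes. miR-125b-3p, from a hairpin known to be transcribed near let-7 and miR-99 or miR-100 members, lay at 2179, 2171, 1676, 1542 and 2446 CPM in ovary and 896, 870.5, 1030.1, 1111 and 1647 CPM in uterus. The uterus libraries were lower except for uterus 5, which passed ovary 4. Its log2 change was -1.01 ± 0.27 (adjusted p = 0.0139), -1.24 in the fit without the libraries standing apart, and -0.89 without ovary 2, where the call was lost. miR-100-5p lay at 15771 ± 4518 CPM in ovary and 11255 ± 2409.9 CPM in uterus, a log2 change of -0.69 ± 0.22 (adjusted p = 0.0444), and passed in 5 of the 10 fits that left out a library (range -0.84 to -0.53). Of the 9 tested members of the miR-99, miR-100 and miR-125 list, these 2 were lower and passed, beside 2.00% of all tested miRNAs. None of the 9 had a positive log2 change, against 162 of the 350 tested, and the median was -0.69. The most abundant of them, miR-99a-5p and miR-125b-5p, did not pass, with -0.76 ± 0.40 and -1.03 ± 0.46. miR-99a-5p passed without uterus 4 (-1.27). With library totals as the scaling, 1 of the 9 had a positive sign. The summed level of the list ran from 183122 to 345739 CPM over the ovary libraries. In uterus libraries 1 to 5 it lay at 87423, 104972, 103861, 305681 and 231502 CPM. The 2 highest of these, uterus 4 and uterus 5, are libraries that stand apart and lay within the ovary range.

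miR-148a-5p, the minor arm of a hairpin whose 3p arm is known to act on the DNA methyltransferase DNMT1, lay at 258, 355, 163, 194 and 126 CPM in ovary and 85.4, 73.7, 94.1, 99.6 and 165 CPM in uterus. Only uterus 5 reached the range of the ovary libraries. The log2 change was -1.29 ± 0.34 (adjusted p = 0.0132), and -0.92 without ovary 2, where the call was lost. The 3p arm, which held 60397 ± 53443 CPM in ovary and 23830 ± 17790 CPM in uterus, had a log2 change of -1.65 ± 0.66 and did not pass (adjusted p = 0.113). It passed without ovary 1 (-1.88) and in the Wald test of DESeq2 (-1.72). Its highest values in each tissue were those of the libraries that stand apart, ovary 2 and 4 and uterus 4 and 5. miR-455-3p, from a hairpin inside a fibrillar collagen gene in mammals, lay at 792 ± 279 CPM in ovary and 411 ± 101 CPM in uterus. Its log2 change was -1.10 ± 0.36 (adjusted p = 0.0491), and it passed in 3 of the 10 fits that left out a library (range -1.35 to -0.97).

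Below the threshold on the ovarian side, the smallest p-values were those of 3 miRNAs, given as values. miR-483, from an intron of the imprinted growth factor gene IGF2, lay at 68.8 ± 21.3 CPM in ovary and 27.9 ± 12.1 CPM in uterus, with -1.53 ± 0.57, and its groups did not overlap. miR-424-3p and miR-450-5p, of an X-linked cluster known for cell cycle targets, had log2 changes of -1.22 ± 0.45 and -1.01 ± 0.39. All 6 tested members of that cluster were negative, with a median of -0.67 and no call in edgeR's test. The Wald test of DESeq2 called miR-424-3p (-1.34) of that cluster, and also miR-483 (-1.58).

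On the uterine side, miR-9 had the smallest p-value of all, although it is best known from neural development. miR-9-5p lay at 143, 60.6, 75.4, 123 and 114 CPM in ovary libraries 1 to 5 and at 2527, 3759.7, 1516, 322 and 1083 CPM in uterus libraries 1 to 5. Each uterus library was above each ovary library, and the 2 lowest uterus values were those of the libraries that stand apart. The log2 change was 3.96 ± 0.48 (adjusted p = 2.32e-07), 4.55 without those libraries, and 3.61 to 4.26 over the fits that left out 1 library. The 3p arm was much rarer, at 0.990 ± 0.815 CPM in ovary and 8.21 ± 3.93 CPM in uterus, and also did not overlap. Its log2 change was 2.69 ± 0.65 (adjusted p = 0.00848), and 3.33 without ovary 4. Of the 9 tested members of the neural and neuroendocrine list, the 2 arms of miR-9 were higher and passed, beside 6.86% of all tested miRNAs, and none was lower. The other 7, arms of miR-7, miR-128, miR-129 and miR-218, ran from -0.82 to 0.82 with no call, and miR-124a, which marks neurons, reached at most 1.02 CPM in any month 6 library. The list median was -0.26 and turned to 0.03 with library totals. It was 0.29 when the libraries that stand apart were left out.

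The miRNAs of striated muscle formed the second pattern. miR-206, which in mammals is known from skeletal muscle, lay at 32.6, 1.61, 4.67, 2.74 and 5.87 CPM in ovary and 619, 103, 195, 32.2 and 30.2 CPM in uterus. The highest ovary value, that of ovary 1, just passed the 2 lowest uterus values, and uterus 1 was more than 3 times the next library. The log2 change was 4.31 ± 0.68 (adjusted p = 2.24e-05), 4.42 in the fit without the libraries standing apart, 5.60 without ovary 1 and 3.14 without uterus 1. miR-133a-3p, which works beside miR-1 in muscle, lay at 151, 81.1, 82.9, 68.0 and 156 CPM in ovary and 692, 435, 357, 519 and 384 CPM in uterus. Its groups did not overlap, with a log2 change of 2.01 ± 0.47 (adjusted p = 0.00715) and 1.85 without the libraries that stand apart, where it did not pass. miR-1 lay at 218, 479, 328, 1179 and 327 CPM in ovary and 2054, 1417, 1318, 4119 and 4373 CPM in uterus, again without overlap. Its log2 change was 2.11 ± 0.64 (adjusted p = 0.0408), and 2.70 without ovary 4, the highest ovary library. It was 2.32 without the libraries that stand apart, where miR-1 did not pass. Its call was lost without ovary 2, ovary 3, ovary 5 or uterus 4, with log2 changes of 2.12, 1.96, 1.94 and 1.83.

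Of the 6 tested members of the striated muscle list, these 3 were higher and passed, beside 6.86% of all tested miRNAs, none was lower, and the median was 2.06. miR-133b and miR-133a-5p, both under 9 CPM in each library, had log2 changes of 2.12 ± 0.80 and 1.82 ± 0.67 and did not pass. With library totals both passed (2.26 and 2.04), as did miR-133a-5p in the Wald test of DESeq2 (1.80). The remaining tested member, miR-499-5p, which is encoded in a slow muscle and heart myosin gene, had -0.83 ± 0.57. miR-208b, another myosin-encoded miRNA, reached at most 0.14 CPM. The summed level of the list ran from 408 to 1271 CPM over the ovary libraries and from 1878 to 4814 CPM over the uterus libraries. Whether muscle tissue of another kind entered the samples was not tested. As miR-1 and miR-206 are close in sequence and the treatment of reads that fit both is not given in the sources used here, the split between them is uncertain.

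miR-490, known to be encoded in a muscarinic acetylcholine receptor gene that smooth muscle uses, lay at 18.0, 23.8, 2.90, 11.0 and 10.5 CPM in ovary and 85.9, 15.1, 81.0, 124 and 165 CPM in uterus. Only uterus 2 fell among the ovary libraries. The log2 change was 2.65 ± 0.65 (adjusted p = 0.00925), and 2.50 without the libraries that stand apart, where it did not pass. The miR-143 and miR-145 cluster, the best known smooth muscle miRNAs, had no call among its 4 tested arms, all with a positive log2 change and a median of 0.67 (1.04 without the libraries that stand apart). miR-145-5p lay at 20849.5, 19303, 9969, 10312 and 9789 CPM in ovary and 36407, 23371, 22806, 25229.8 and 36347 CPM in uterus. Its groups did not overlap, but its log2 change of 0.86 ± 0.31 did not pass (adjusted p = 0.0792). It passed with library totals (1.04) and without ovary 2 (1.12). miR-143-3p was the miRNA with the most counts in both tissues, at 104164 ± 48439.9 CPM in ovary and 154175 ± 34538 CPM in uterus, and its log2 change of 0.25 ± 0.57 was within its error. That change ran from 0.11 without ovary 5 to 0.72 without ovary 4, and was 1.09 without the libraries that stand apart, with no call in any of these fits. The summed level of the cluster ran from 83495 to 197668 CPM over the ovary libraries and from 153268 to 249840.0 CPM over the uterus libraries.

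**Figure D2:**
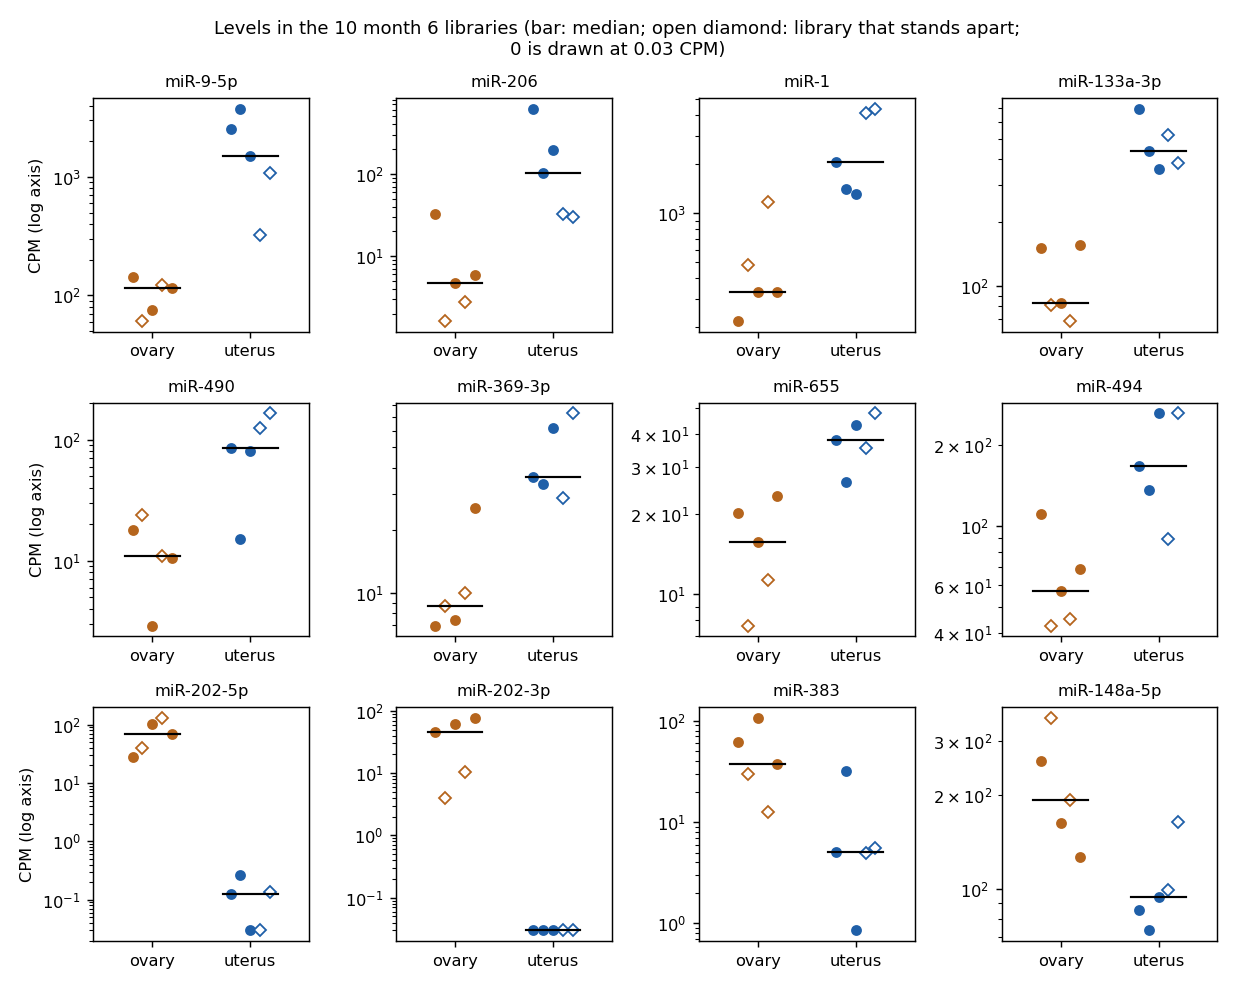
CPM (log axes) of 12 called miRNAs in the 5 ovary (brown) and 5 uterus (blue) libraries of month 6. Horizontal bars are medians, open diamonds are libraries that stand apart, and 0 is drawn at 0.03 CPM. miR-9-5p, miR-1, miR-133a-3p, miR-369-3p, miR-655 and both arms of miR-202 show no overlap, while miR-206, miR-490, miR-494, miR-383 and miR-148a-5p overlap in at least 1 library.

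The largest group of calls came from the DLK1-DIO3 region, an imprinted locus that in mammals gives one long series of miRNAs from the maternal chromosome. Of the 50 tested members of its list, 9 were higher in uterus and passed (beside 6.86% of all tested miRNAs), none was lower, 48 had a positive log2 change, and the median was 0.94. The 9 were miR-369-3p, miR-380-5p, miR-494, miR-154b-5p, miR-487b-3p, miR-409-5p, miR-382-3p, miR-379-3p and miR-655. Their log2 changes ran from 1.17 to 1.82, smaller than those of miR-9 and miR-206. The list members are transcribed together, so they are not independent of each other. In the RefSeq gene order of the goat assembly ARS1.2, miRNA genes not over 10 kb from the next were joined into runs. The run with the most tested miRNAs held 44, which came from 35 genes. Genes without a tested miRNA were not counted. Of these 44 miRNAs, 10 were called, the 9 above and miR-3959-5p (1.23 ± 0.38), and 43 were positive. A second run held 9 tested miRNAs from 6 genes, miR-127, miR-136, miR-432, miR-433, miR-493 and miR-665. None of the 9 was called, 8 were positive, and their median was 0.63.

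Within the locus, miR-369-3p lay at 6.97, 8.65, 7.45, 9.98 and 25.5 CPM in ovary and 36.2, 33.4, 62.1, 28.6 and 72.9 CPM in uterus. The groups did not overlap, ovary 5 being nearest to the uterus, with a log2 change of 1.82 ± 0.45 (adjusted p = 0.0101) and a call in all 10 fits that left out 1 library. miR-655 lay at 20.1, 7.63, 15.7, 11.4 and 23.3 CPM in ovary and 37.9, 26.5, 43.1, 35.3 and 47.7 CPM in uterus, also without overlap. Its log2 change was 1.17 ± 0.28 (adjusted p = 0.00715), and it lost its call without ovary 4 (0.98) and without uterus 1 (0.99). miR-494, at 64.9 ± 27.5 CPM in ovary and 183 ± 76.8 CPM in uterus, had 1.38 ± 0.41 and overlapped. miR-409-5p, at 78.2 ± 38.8 CPM and 204 ± 66.6 CPM, had 1.27 ± 0.32. miR-487b-3p had 1.33 ± 0.33, miR-154b-5p 1.35 ± 0.42, miR-382-3p 1.27 ± 0.37 and miR-379-3p 1.26 ± 0.33. The calls of the 8 other than miR-369-3p passed in 2 to 8 of the 10 fits that left out a library, and none of the 9 passed once the libraries that stand apart were left out, where the list median was 0.78 with 44 of 50 positive. Libraries of 1 tissue differed widely: the summed level of the list ran from 5745 to 20749.8 CPM over the ovary libraries and from 12504 to 28222 CPM over the uterus libraries, lowest in ovary 2 and, in uterus, lowest in uterus 4. The most abundant member, miR-127-3p, had 0.60 ± 0.33 and did not pass.

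The remaining calls on the uterine side were spread over several families. miR-216b, known from the pancreas, lay at 0.158, 0.293, 0.379, 0.249 and 0.309 CPM in ovary and 8.30, 7.89, 6.82, 1.57 and 0.825 CPM in uterus, which is 10 counts against 189. It did not overlap and its log2 change was 3.83 ± 0.88 (adjusted p = 0.00715), at a level where the 2 uterus libraries that stand apart were the lowest of the 5. miR-193a and miR-193b-3p, with 1.59 ± 0.51 and 1.57 ± 0.51, cannot be told apart, since their counts differed by at most 8 and by at most 4.58% in each library. miR-193a lay at 33.4, 24.1, 12.9, 16.3 and 25.2 CPM in ovary and 63.6, 61.1, 45.2, 109 and 83.0 CPM in uterus, without overlap, and was called in 2 of the 10 fits that left out a library. miR-365-3p, which in mammals shares primary transcripts with miR-193, lay at 119 ± 36.1 CPM in ovary and 244 ± 45.6 CPM in uterus. Its groups did not overlap, yet its call, at 0.93 ± 0.27 (adjusted p = 0.033), was lost in each of the 10 fits (0.72 to 0.98).

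Of the miR-181 family, known from lymphocyte development, miR-181c-3p had 1.72 ± 0.55 and miR-181d had 1.19 ± 0.38, both called. These are 2 of the 4 tested members, beside 6.86% of all tested miRNAs. Of the others, miR-181c-5p had 0.34 ± 0.53 and miR-181b-5p -0.34 ± 0.30. miR-181c and miR-181d lie next to each other in the RefSeq gene order. miR-103-3p, known from lipid and insulin metabolism, lay at 1505 ± 854 CPM in ovary and 2960.4 ± 1181 CPM in uterus, with overlap and 0.88 ± 0.28. The calls of miR-181d and miR-103-3p passed in 2 of the 10 fits that left out a library, and that of miR-181c-3p in 6.

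The miR-183 cluster and the miR-200 family, both known from epithelium, differed widely among the ovary libraries, and miR-183 was their only call. miR-183, of a cluster known from sensory cells and epithelia, lay at 183, 7.92, 10.4, 17.6 and 6.33 CPM in ovary and 365, 493, 107, 16.9 and 70.1 CPM in uterus. Ovary 1 exceeded 3 of the uterus libraries, and uterus 4 lay below ovary 4. The log2 change was 2.33 ± 0.75 (adjusted p = 0.0443), 4.19 without ovary 1, and the call was lost without any one of the other 4 ovary libraries or of uterus 1 to 3, at 1.78 or more. Its partners miR-182 and miR-96 had 1.71 ± 0.67 and 2.09 ± 0.93 and did not pass. The miR-200 family, which maintains the epithelial state by repressing ZEB1 and ZEB2, had no call among 5 members, all positive, with a median of 1.89. miR-200b lay at 30654, 48.0, 122, 3344 and 177 CPM in ovary and 27976, 44671, 23370.0, 3872 and 4792 CPM in uterus. Ovary 1 was thus within the uterus range and ovary 4 just under it, while ovary 2, 3 and 5 were lower by far. Its log2 change of 1.77 ± 1.24 did not pass (adjusted p = 0.417) and was 4.39 without ovary 1, where miR-200b, miR-200a, miR-429 and miR-182 were called. miR-200a (2.84) was also called by the Wald test of DESeq2 (2.82), and miR-141 (1.89) without ovary 4 (4.80). The summed level of the family ran from 90.5 to 36507 CPM over the ovary libraries and from 6269.8 to 56722 CPM over the uterus libraries.

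The same 2 ovary libraries were high for the miR-34 and miR-449 family, known from cells with motile cilia such as those of the oviduct. miR-34c-5p lay at 2525, 3.52, 0.505, 1728 and 8.03 CPM in ovary and at 88.8, 96.6, 3157, 28.7 and 61.2 CPM in uterus. Ovary 1, ovary 4 and uterus 3 were high and the others low, and the log2 change of -0.49 ± 1.83 was within its error. miR-449a-5p lay at 143 CPM in ovary 1 and 333 CPM in uterus 3, and under 7 CPM in the other 8 libraries, of which ovary 4 was the highest at 6.86 CPM. The 9 tested members had no call, 3 were positive, and the median of -0.45 turned to 0.58 without the libraries that stand apart. Whether epithelium of a neighbouring organ entered these libraries was not tested.

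miRNAs encoded within the HOX gene clusters, whose expression follows position along the body axis, also split the ovary. miR-10a-5p was high in ovary 1 and ovary 4, at 28115, 1306, 1133, 21728 and 3299.5 CPM in ovary libraries 1 to 5, and lay at 20986, 21829, 41389, 12081 and 20834 CPM in uterus libraries 1 to 5. miR-196b instead was high in ovary 3 and ovary 5, at 1.74, 2.35, 388, 5.11 and 255 CPM in ovary libraries 1 to 5. In uterus it lay at 1239.7, 1612, 1273, 397 and 505 CPM, each value above each ovary value, though uterus 4 exceeded ovary 3 only slightly. The log2 changes, 0.94 ± 0.72 and 2.76 ± 1.28, did not pass. miR-196a was likewise above 100 CPM in ovary 3 and 5 and under 4 CPM in ovary 1, 2 and 4. All 6 tested members of the HOX list were positive, with a median of 0.75 and no call.

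**Figure D3:**
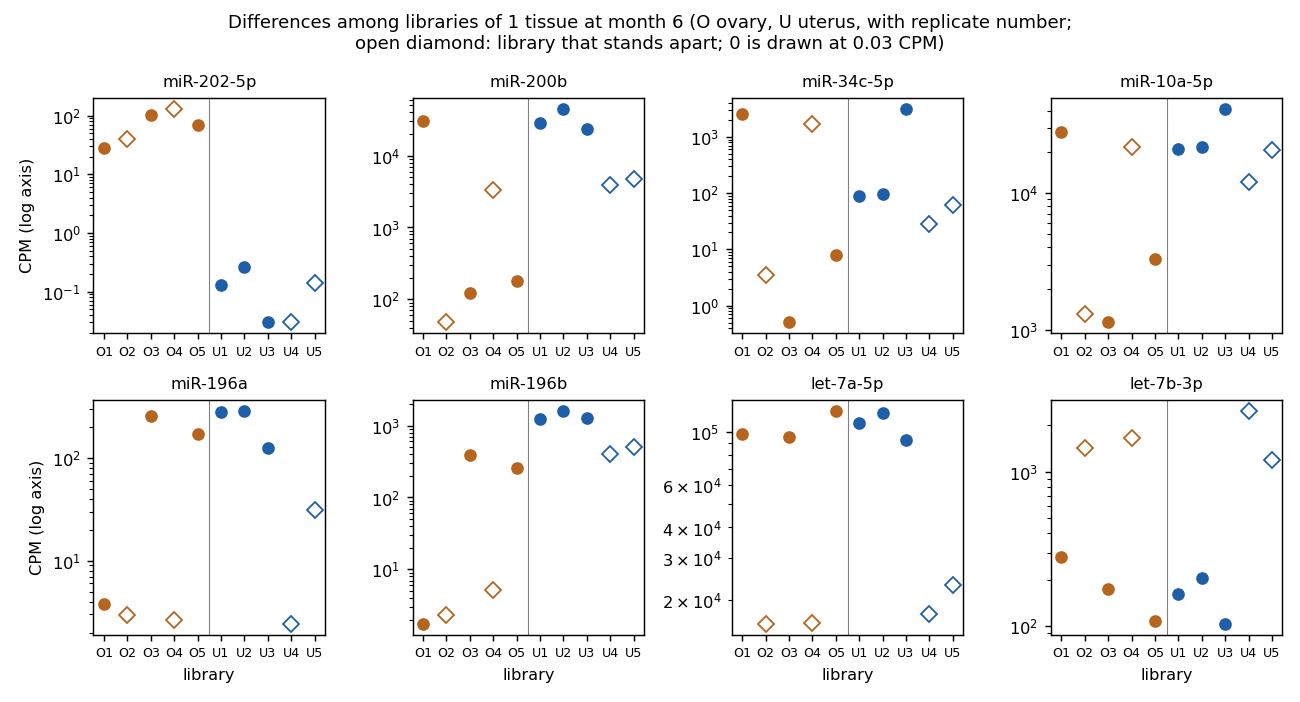
CPM (log axes) of 8 miRNAs in each month 6 library (O ovary, U uterus, with the replicate number). Open diamonds are libraries that stand apart, and 0 is drawn at 0.03 CPM. miR-202-5p separates the tissues, miR-200b, miR-34c-5p and miR-10a-5p are high in ovary 1 and 4, miR-196a and miR-196b are high in ovary 3 and 5, and let-7a-5p and let-7b-3p set the 4 diamonds apart in both tissues.

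The other lists had at most 1 call. The miR-148 and miR-152 family had the call of miR-148a-5p and a median of -0.95. The let-7 family (16 tested, 3 positive, median -0.36), the miR-17-92 cluster with its paralogs (19 tested, 4 positive, -0.36), the miR-15 and miR-16 family (9 tested, 0 positive, -0.66) and the miR-29 family (5 tested, 0 positive, -0.26) had none. On the uterine side, miR-221 and miR-222 had a median of 0.49 and the miR-23, miR-27 and miR-24 clusters 0.25, without a call. Lists of other cell types that bulk tissue could hold had no call either. The red blood cell sum, nearly all miR-451-5p (0.85 ± 0.71), ran from 12.9 to 39.9 CPM over the ovary libraries and from 22.9 to 76.2 CPM over the uterus libraries. The leukocyte sum ran from 1382 to 2765 CPM over the ovary libraries and from 1618 to 2350.3 CPM over the uterus libraries, with a median of -0.16, and endothelial miR-126 had a median of 0.24. miR-122, which marks liver, lay under 8 CPM in each library. The medians of the list of other epithelial miRNAs (miR-192, miR-194 and miR-215), of miR-199 and miR-214, and of the miR-30 family were -0.09, -0.12 and -0.18, and each was positive with library totals. Where the summed levels of these lists moved with a call, their part in it was not tested.

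**Figure D4:**
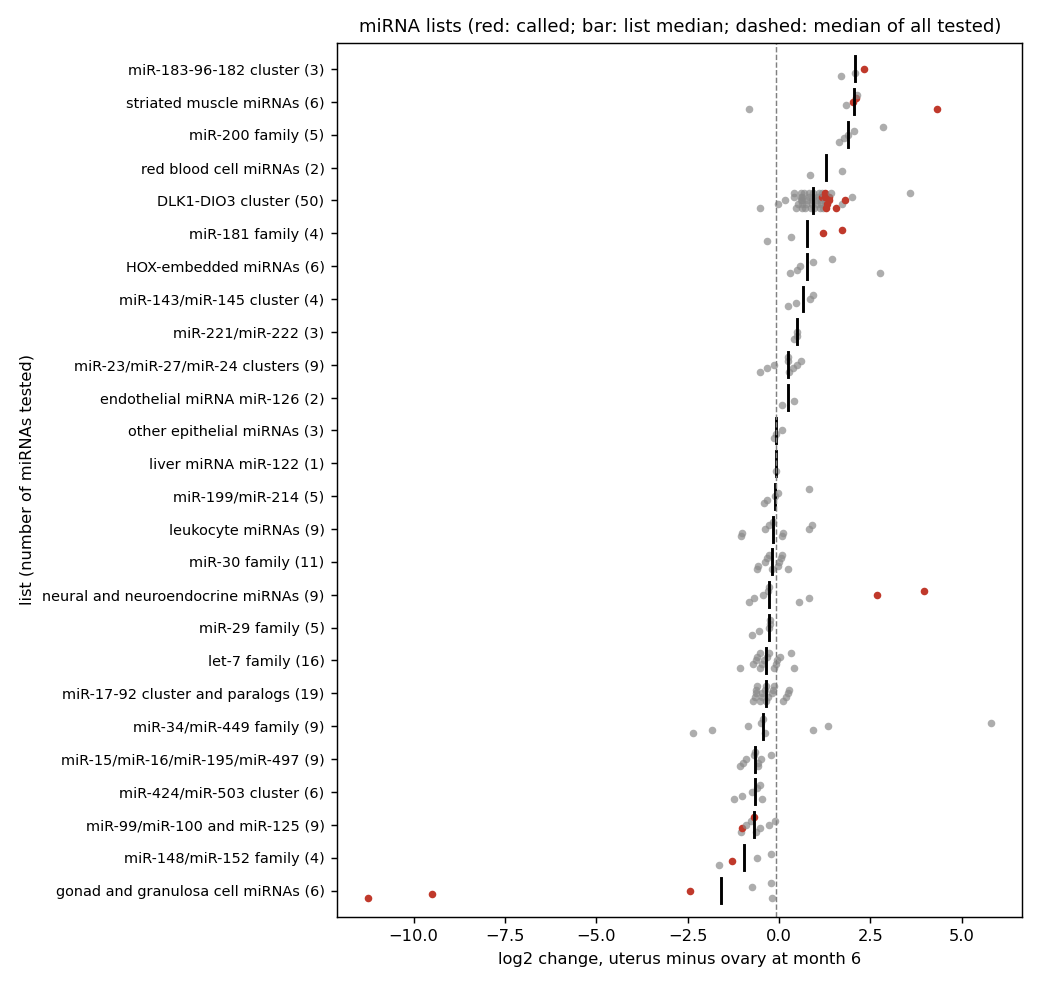
Log2 change, uterus minus ovary, of each tested miRNA (points; red where called) in the 26 lists, with the number tested in parentheses. Black bars are list medians and the dashed line is the median of all 350 miRNAs, -0.07. The gonad list lies farthest below the line, and the miR-183-96-182, striated muscle and miR-200 lists lie farthest above it.

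The most abundant miRNAs were largely shared. The 10 with the most counts took 64.4% of the ovary counts and 61.8% of the uterus counts on average, 8 of them stood in both lists of 10, and none of the 12 in either list was called. The largest log2 change among them was that of miR-148a-3p, and the next that of let-7c-5p (-1.06 ± 0.55). Counts of different miRNAs also reflect how well each is ligated and read, so their order is that of counts. The averages pool unlike libraries. The summed let-7 level ran from 73356 to 98394 CPM in the 4 libraries that stand apart. In the other 6 it ran from 298710 to 387280 CPM. In the comparison of the tissues, the 2 arms of a hairpin mostly had the same sign. Of 114 hairpins with both arms tested, 90 had both arms on the same side of 0, with a median distance of 0.26 between their log2 changes. The same share for unrelated pairs of miRNAs was not computed. Between single libraries the ratio of the arms did shift for many hairpins, as given under the other observations. Of the 14 hairpins with a call, both arms were called for miR-9 and miR-202, and in the other 12 the second arm had the same sign.

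The tissues were also compared at the younger ages, in separate libraries. A missing call at a younger age does not show that the difference was absent there. With the same test, 17 miRNAs were called at day 1 (4.86%), 89 at month 2 (25.4%) and 17 at month 4 (4.86%). Of the 31 calls of month 6, 4 were also called with the same sign at day 1, 16 at month 2 (16 of the 89 there) and 11 at month 4, and 11 were called at no younger age. The sign was the same at all 4 ages for 21, namely 14 of the 24 higher and all 7 lower. miR-206 was among the most constant, at 4.34 ± 0.69 at day 1, 4.33 ± 0.68 at month 2, 3.51 ± 0.66 at month 4 and 4.31 ± 0.68 at month 6. miR-202-5p had -11.54 ± 1.29, -10.03 ± 1.31 and -8.48 ± 1.22 at the younger ages. miR-133a-3p had 1.14 ± 0.46, 2.71 ± 0.49 and 2.83 ± 0.49, and was called at months 2 and 4. miR-490 had 1.88 ± 0.63, 2.00 ± 0.63 and 2.96 ± 0.66, with calls at the same 2 months.

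A contrast of the month 6 difference with the mean of the differences at the 3 younger ages called no miRNA (0 of 350, 0%), while 19 had an unadjusted p under 0.05 and the Wald test of DESeq2 also called 0. The smallest p was that of miR-9-5p, whose log2 difference was 1.49 ± 0.43 at day 1, 3.00 ± 0.46 at month 2, 1.99 ± 0.44 at month 4 and 3.96 ± 0.48 at month 6. In ovary its level lay at 302 ± 64.5, 121 ± 28.7, 141 ± 44.7 and 103 ± 34.1 CPM from day 1 to month 6. In uterus it lay at 1005 ± 556, 957 ± 367, 468 ± 177 and 1842 ± 1336 CPM. Its contrast was 1.80 ± 0.50 (adjusted p = 0.304). It passed when uterus 3, uterus 4 or uterus 5 was left out (2.25, 2.06 and 2.34), when the libraries that stand apart were left out together (2.47), and with no filter on low counts.

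Next in that contrast came miR-494 and miR-409-5p of the DLK1-DIO3 region, with 1.52 ± 0.47 and 1.15 ± 0.37 (adjusted p = 0.423 for both). miR-494 had tissue differences of -0.15 ± 0.40, -0.02 ± 0.40 and -0.25 ± 0.40 at the younger ages, and miR-409-5p had 0.20 ± 0.32, -0.05 ± 0.32 and 0.21 ± 0.32. miR-655 had 0.85 ± 0.31 and miR-204-5p, highest in uterus 2 (3811 CPM), had 1.72 ± 0.71. In the other direction miR-335-5p had -2.02 ± 0.68, miR-383 -1.78 ± 0.84, miR-130a-3p -1.14 ± 0.52, miR-214-5p -0.66 ± 0.37 and miR-224-5p -0.64 ± 0.35. None of these passed. The median of the DLK1-DIO3 list, 0.94 at month 6, was -0.05 at day 1, 0.46 at month 2 and 0.35 at month 4, beside medians of all tested miRNAs of -0.03, -0.05 and 0.13. In the fit of all 40 libraries no single miRNA passed in this contrast, and in the alternatives miR-9-5p alone did, in the 5 named above.

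**Figure D5:**
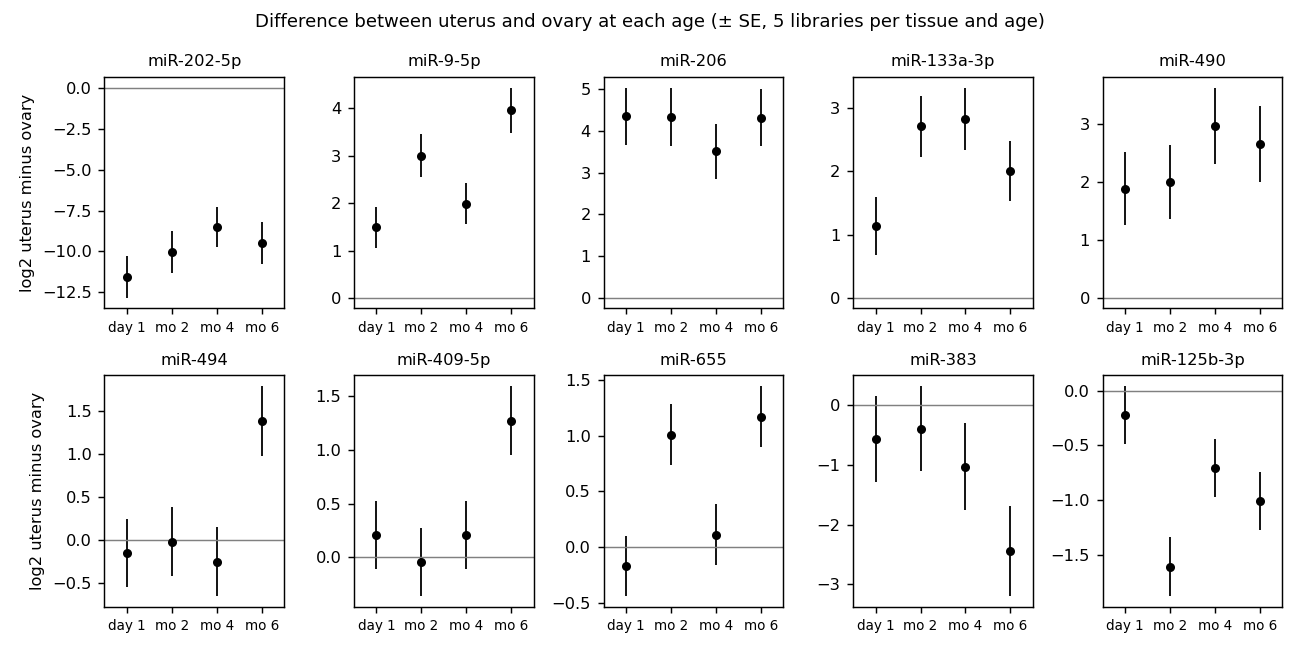
Log2 difference, uterus minus ovary, of 10 miRNAs at day 1 and months 2, 4 and 6 (points; bars are ± SE, 5 libraries per tissue and age; each panel has its own scale). miR-206 stays between 3.51 and 4.34, miR-9-5p is highest at month 6 (3.96), and miR-494 and miR-409-5p lie within their SE of 0 before month 6.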

How the data were processed

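Small RNA of ovary and uterus of Jining gray goats was sequenced after TRIzol extraction of total RNA, per the labels. The authors deposited 1 table of whole-number read counts per mature miRNA and library, without normalization. The submitters' processing notes name cutadapt 1.16, Bowtie 1.0.1 and RSEM 1.3.0. No genome build or miRNA annotation and no rule for reads that fit several miRNAs is given in the sources used here, so paralogs and shared arms are uncertain. Library totals of 6316644 to 8017302 counts at month 6 set the counting precision, and intervals and limits from 3 counts cover counting error only.

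From these counts, all 40 libraries were fitted as 8 groups of tissue and age in R 4.3.3 with edgeR 4.0.16 (TMM scaling, filterByExpr by group, quasi-likelihood test, Benjamini-Hochberg adjustment over all tested miRNAs, common biological coefficient of variation 0.628). The SE was obtained from each log2 change and its F statistic (size of the change over the root of F). The pipeline was tested on simulated data. Principal components and correlations used log2 CPM with a prior count of 2.

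Named were the 15 largest calls in each direction with a mean of at least 10 CPM, the 3 smallest p-values that fill the lower side to 10, list members, the 10 most abundant miRNAs of each tissue and 5 in each direction of the age contrast. miR-216b, miR-9-3p and further calls outside this rule were named after their values were seen. The comparison, the 26 lists and this rule were chosen with earlier results of these data known. Alternatives were DESeq2 1.42.0 (size factors, Wald test), library totals, no or a stricter filter (10 CPM in 5 libraries), a replicate block, month 6 libraries alone and leaving out each library. A fit without 5 libraries with let-7b-3p of at least 1000 CPM was added after the data were seen.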

Additional observations from a re-analysis of the deposited data

Results flagged for a closer look

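Of 62 groups of 5 libraries (31 called miRNAs in 2 tissues), 8 had a library farther from its neighbour in CPM than Dixon's limit allows. About 1 in 20 independent groups of normally distributed values would pass that limit. The groups here share libraries and include arms of the same hairpin, and the distribution of CPM was not tested. The 8 of 62 are therefore not set against chance. Ovary 1 was such a library for miR-183, at 182.9 CPM against 17.59 CPM in the next ovary library, and for miR-206, at 32.61 against 5.868 CPM. Ovary 4 held miR-1 at 1179 CPM against 479.3 CPM in the next, and ovary 5 held miR-369-3p at 25.48 against 9.978 CPM. In uterus, miR-206 reached 618.7 CPM in uterus 1 against 194.6 CPM in the next library, and miR-383 reached 31.71 CPM in uterus 2 against 5.498 CPM. miR-100-5p was lowest in uterus 2, at 7107 CPM with the next at 11787 CPM, and miR-148a-5p was highest in uterus 5, at 164.5 CPM with the next at 99.62 CPM. In 6 of these 8 groups the library lies on the side of the other tissue, so its removal widens the difference; the exceptions are miR-206 in uterus 1 and miR-100-5p in uterus 2.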

How the results depend on the processing

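All 31 called miRNAs kept their direction under each alternative in which they were tested, in 344 cases with a call and in 240 without one. Against 31 calls (24 higher, 7 lower in uterus), DESeq2 size factors gave 21 (13, 8), library totals 30 (27, 3), no low-count filter 20 (15, 5), the stricter filter 23 of 266 tested (15, 8), and the Wald test of DESeq2 39 (26, 13). Of the 31, these called 20, 22, 20, 22 and 30 again. Month 6 libraries alone gave 14 of 298 tested (12, 2). The fits that left out 1 library gave 12 to 35 calls, 10 to 26 of them higher and 2 to 9 lower. Without the 5 libraries that stand apart there were 7 (4, 3). The contrast of month 6 with the younger ages gave 0, but 1, miR-9-5p, with no low-count filter and without the libraries that stand apart, and 0 to 1 when 1 library was left out. Same-numbered libraries correlated from -0.395 (number 2) to 0.337 (number 4) in their deviations from the group means, and 1 ovary library correlated best with its own number. For number 4 both libraries stand apart, and for number 2 only that of the ovary. The correlations therefore cannot decide whether the numbers are paired. With the replicate number as a block there were 23 calls (20, 3), with miR-141 (3.98), miR-182 (2.17) and miR-200a (5.37) added, and 7 (5, 2) with the block in month 6 libraries alone. Depth was similar among the libraries, and miRNAs under about 1 CPM, such as miR-202 in uterus, rest on few counts. Some of these settings also used fewer libraries or another set of tested miRNAs, and the cause of these changes was not tested.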

Other observations

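The 4 month 6 libraries that stand apart also differed from the other 6 in the ratio of the 2 arms of many hairpins, in both tissues alike. Of 58 hairpins with both arms at a mean of at least 10 CPM and let-7b, which marks these libraries, left out, 27 (46.6%) had the 4 ratios wholly outside the range of the other 6, 19 above and 8 below. For let-7d the 5p to 3p ratio was 0.536 and 0.493 in ovary 2 and 4 and 0.384 and 0.572 in uterus 4 and 5, against 4.69 to 9.42 in the other 6, so that the more counted arm was the other one. miR-30e went the opposite way, with 1.14 to 1.61 in the 4 libraries and 0.0934 to 0.351 in the others. miR-424 ran from 0.415 to 0.647 against 0.0371 to 0.0875, and miR-411a from 7.90 to 10.5 against 1.29 to 2.15. miR-202, counted in ovary only, had a 5p to 3p ratio of 10.3 and 12.5 in ovary 2 and 4 and of 0.609, 1.63 and 0.886 in ovary 1, 3 and 5. These ratios were looked at after the data were seen, and what sets the libraries apart was not tested.

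Of the 26 miRNAs whose groups did not overlap, 10 were not called. Among them were miR-145-5p, miR-145-3p, miR-196b, miR-10b-3p and miR-483, and from the DLK1-DIO3 region miR-323a-3p (1.18 ± 0.40) and miR-495-3p (1.19 ± 0.42). The largest log2 change without a call on the uterine side, that of miR-449b-5p (5.81, a fitted value against an ovary at 0), came from a rare miRNA counted in uterus 3 alone, at 5.12 CPM, the library with the highest miR-34c-5p.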
